A study of Mus musculus with 12 samples.

Results

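The 10 genes described here encode subunits of the Polycomb repressive complexes: Ezh1, Ezh2, Eed, Suz12 and Jarid2 of Polycomb repressive complex 2 (PRC2), and Bmi1, Ring1, Rnf2, Cbx2 and Cbx7 of Polycomb repressive complex 1 (PRC1). They were chosen by name as a family, with earlier results of these data known. All 10 were found in the count and TPM tables of both days, among 43309 features at day 5 and 42802 at day 9. The samples were C57BL/6 mouse neural progenitor cells, dividing cells that can give rise to neurons and glia, cultured with EGF and FGF-2, 2 growth factors that keep them dividing, at 10 ng/ml. The WT groups had wild-type Lmnb1 (LaminB1+/+) and the cKO groups had both alleles floxed (LaminB1fl/fl). All 4 groups carried the Cre-dependent EYFP reporter Ai3 and received a lentivirus with Cre under a Sox2 promoter, so that the WT cells were also exposed to virus and Cre. EYFP-positive cells were sorted 5 or 9 days after the virus, and polyadenylated RNA of 12 libraries was sequenced, 3 per group. Cells without Sox2 promoter activity or without the virus fall outside this sort. No source used here says whether the 3 replicates are separate cultures, animals or repeat preparations, so a p-value here speaks for the spread between these libraries only.

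Polycomb proteins keep developmental genes silent. PRC2 places methyl groups on lysine 27 of histone H3 through its catalytic subunit, which is either Ezh2 or its paralogue Ezh1. Eed and Suz12 are needed for that activity, and Jarid2 helps to bring the complex to chromatin. PRC1 adds ubiquitin to histone H2A through the RING proteins Ring1 (RING1A) or Rnf2 (RING1B), which pair with a PCGF protein such as Bmi1. In canonical PRC1 a CBX protein reads the methyl mark left by PRC2. In neural progenitors Ezh2 and Bmi1 are known for supporting proliferation, Bmi1 through repression of the Cdkn2a locus, while Ezh1 is known as the form kept in cells that no longer divide.

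Library totals lay between 26720551 and 32127697 counts at day 5 and between 13315309 and 24662862 at day 9. A set of 16 features counted here as structural RNA, such as Gm42418, Rn7sk and Rmrp, took 72.57% and 71.36% of counts in cKO replicates 1 and 3 of day 9, 0.3625% in cKO replicate 2 and 15.9% to 34.96% in the WT libraries of that day. The members rested on 60 (Cbx7) to 369 (Jarid2) counts in those 2 cKO libraries, fewer than in any other library of day 9 except for Suz12, whose lowest count was 66 in WT replicate 3. Lmnb1 itself lay at 247 to 288 CPM (library-scaled counts, TMM within each day) in WT and 37.8 to 45.0 in cKO at day 5, and at 156 to 210 and 32.8 to 39.4 CPM at day 9. The progenitor markers Sox2 and Nes were present in every group. Of 8 microglial and macrophage markers, Aif1 and C1qa were at 0 in all 12 libraries, but others were not. At day 5 Cd68 was at 1.69 to 2.74 CPM and P2ry12 at 0.431 to 1.86 CPM. The summed TPM of the 8 markers at that day was 3.185 to 4.794 in WT and 3.798 to 5.405 in cKO. At day 5, WT replicate 1 and cKO replicate 2 stood apart from the other 4 libraries, so the results of that day are also given without them.

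At day 9 after the virus, 3 of the 10 members rose in cKO: Cbx7 1.63-fold, Ezh1 1.51-fold and Suz12 3.15-fold. No member fell, and 7 did not pass. Genes were tested with edgeR's quasi-likelihood test, cKO against WT within a day, and called at a Benjamini-Hochberg adjusted p below 0.05 over all features tested. Against this stands a broad change at day 9, when 3071 of 14617 features rose (21%) and 3308 fell (22.6%), so that 3 of 10 higher and 0 of 10 lower are to be read beside those shares. At an unadjusted p below 0.05, 4 members were higher and 1 lower, and DESeq2 called 4 higher and 0 lower. No share of all features is set beside those settings here. The median log2 fold change of the members was 0.23, against 0.01 over all features tested. In the deposited TPM, which include the structural RNA, the median of all features shifted by -0.79 at day 9 (log2(TPM + 1), cKO minus WT), and on that scale the changes of Ezh1 (-0.09), Cbx7 (-0.36) and Bmi1 (-0.09) turned negative. Relative to that median Ezh1 was at 0.69, Suz12 at 1.46, Cbx7 at 0.42, Bmi1 at 0.70 and Ezh2 at -0.38.

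At day 5 after the virus no member passed the test. The test had little power at that day. With simulated counts it recovered 0% of genes changed by 1 on the log2 scale and 39% of those changed by 2. Over all 14850 features 0 rose (0%) and 1 fell (0.00673%), which was Lmnb1. At an unadjusted p below 0.05 the count of members was 0 in both directions, with edgeR and with DESeq2. Whether the change of cKO against WT differed between the days was tested over all 12 libraries: 394 of 15323 features had a higher change at day 9 (2.57%) and 787 a lower one (5.14%), and 0 members passed. With simulated counts that test recovered 0% of log2 changes of 1 and 31% of changes of 2. Without adjustment 2 members had a p below 0.05, as they did with DESeq2. These were Cbx7, with a day difference of 0.94 ± 0.30 (log2, SE; edgeR adjusted p = 0.0955), and Ezh1, with 0.74 ± 0.26 (edgeR adjusted p = 0.141). The share of all features without adjustment is not set beside that count here, so it cannot be read as particular to the members.

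**Figure D1:**
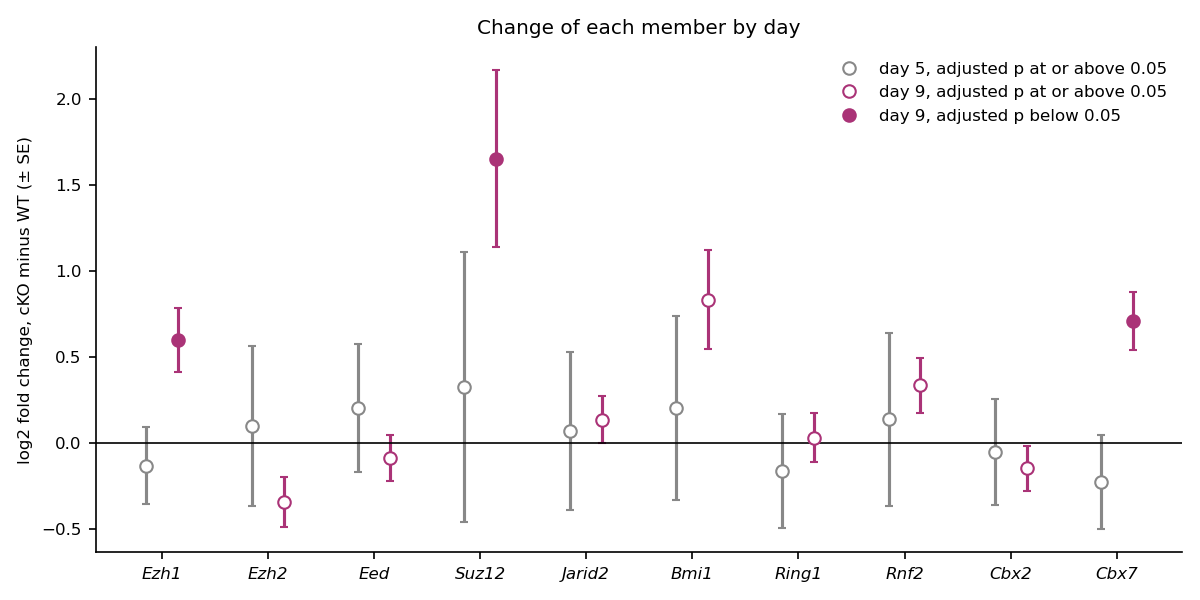
Log2 fold change of each member (cKO minus WT, error bars SE, n = 3 per group) at day 5 (grey) and day 9 (purple), with filled points for an adjusted p below 0.05. Ezh1, Suz12 and Cbx7 at day 9 are the 3 filled points, and the error bars of day 5 are wide, reaching 0.78 for Suz12.

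Ezh2 and Ezh1, the catalytic subunits of PRC2, can replace each other in the complex. Ezh1 lies on chromosome 11 at 101191115-101226463 (mm10, reverse strand) and Ezh2 on chromosome 6 at 47530139-47595341 (mm10, reverse strand). Their coding sequences, taken from the GENCODE vM21 transcripts, aligned with 68.09% identical residues and 65.19% identical bases. The stretch of 34 codons with the most identical residues is printed because it shows how the pair differs in base composition while it encodes the same 34 residues. Capitals mark the 25 bases that differ, 21 of them at the third position of a codon.
Ezh2, coding bases 778-879: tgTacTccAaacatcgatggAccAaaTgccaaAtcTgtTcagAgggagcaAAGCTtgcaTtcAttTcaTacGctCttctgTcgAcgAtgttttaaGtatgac
Ezh1, coding bases 826-927: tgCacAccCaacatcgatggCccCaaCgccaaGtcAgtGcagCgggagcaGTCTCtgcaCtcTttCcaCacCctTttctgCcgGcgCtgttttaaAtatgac
The GC content of this stretch was 42.16% in Ezh2 and 54.9% in Ezh1. Over the longest annotated transcripts it was 44.38% and 51.25%.

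Ezh1 at day 9 lay at 10.7, 11.2 and 13.5 CPM in WT against 15.9, 15.2 and 22.8 in cKO. Every cKO library was above every WT library. The share of all features with no such overlap is not given, so a separation of this kind, here or below, cannot be read as particular to the members. The log2 fold change was 0.60 ± 0.19 (SE, n = 3 per group; edgeR adjusted p = 0.0322). This call was close to the threshold: it ended without WT replicate 1 (adjusted p = 0.102), WT replicate 2 (0.0987), cKO replicate 1 (0.0605) or cKO replicate 3 (0.104) of day 9, and without a filter on low counts (0.0774), all by edgeR. At day 5 Ezh1 was at 6.63, 7.18 and 6.81 CPM in WT against 6.58, 5.83 and 6.39 in cKO. The cKO libraries lay just under the WT libraries there, with a log2 fold change of -0.13 ± 0.22 that did not pass (edgeR adjusted p = 0.9999).

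Ezh2 at day 9 was at 33.6, 36.4 and 26.9 CPM in WT against 25.7, 27.4 and 22.9 in cKO. The groups touched, with cKO replicate 2 above WT replicate 3. Its log2 fold change of -0.35 ± 0.15 did not pass (edgeR adjusted p = 0.0852). After a correction of each library for transcript GC content, chosen after the data were seen, it was -0.58 ± 0.12 and passed (edgeR adjusted p = 0.00765). It also passed without WT replicate 3 (adjusted p = 0.0407) and without cKO replicate 2 (0.0483) of day 9. At day 5 Ezh2 was at 117, 49.2 and 56.6 CPM in WT against 47.5, 122 and 69.1 in cKO, so the spread within a genotype was larger than any difference between genotypes (log2 fold change 0.10 ± 0.47).

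The ratio of Ezh2 to Ezh1 within a library does not depend on the library total. In TPM, which is scaled for transcript length, it was 6.14, 4.77 and 3.30 in the WT libraries of day 9 and 2.005, 2.89 and 1.62 in the cKO libraries. All 3 cKO ratios lay below all 3 WT ratios. The mean fell from 4.74 ± 1.42 to 2.17 ± 0.65 (SD, n = 3), a log2 difference of -1.12, with the smallest p that 3 against 3 allows (two-sided exact permutation test, p = 0.10; 0.375 adjusted over the 12 ratio tests). Ezh2 made up 76.8% to 86.0% of the pair's TPM in WT and 61.9% to 74.3% in cKO. At day 5 the ratio was 31.4, 11.6 and 15.7 in WT against 12.4, 27.4 and 19.1 in cKO. The groups overlapped fully, with means of 19.6 ± 10.4 and 19.6 ± 7.48 (exact permutation p = 0.90), and WT replicate 1 and cKO replicate 2 held the highest ratio of their genotype. The day 9 difference minus the day 5 difference was -1.18 (exact permutation within days, p = 0.12, with 0.005 the smallest possible; adjusted 0.375). Without WT replicate 1 of day 5 it was -1.59 (exact permutation p = 0.03, unadjusted). Levels were not tested between days, because day and table cannot be told apart.

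**Figure D2:**
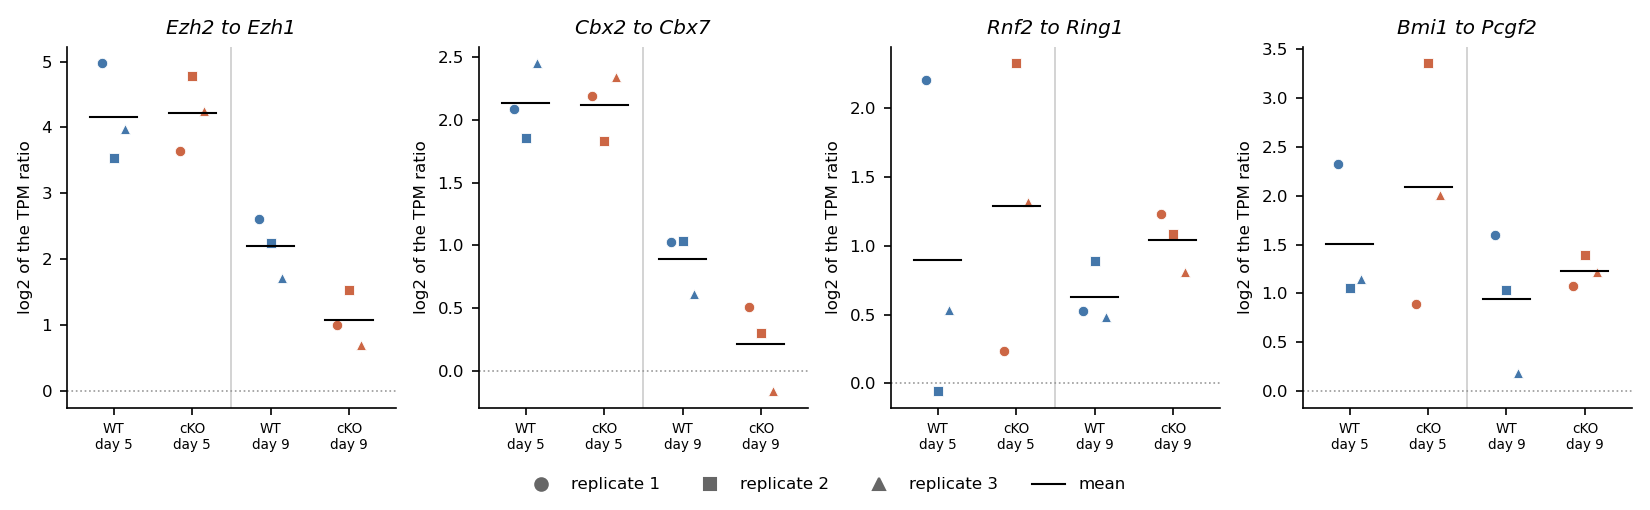
Log2 TPM ratio of 4 pairs of paralogues in each library, by genotype and day, with the mean of each group as a line. The Ezh2 to Ezh1 and Cbx2 to Cbx7 ratios of the 3 cKO libraries of day 9 lie below those of the 3 WT libraries, while the ratios of day 5 overlap between genotypes.

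Suz12, a core subunit that PRC2 needs for its stability and activity, had the largest fold change of the 10 members. It lies on chromosome 11 at 79993106-80034123 (mm10, forward strand). Suz12 at day 9 was at 8.67, 4.63 and 1.92 CPM in WT against 15.9, 15.9 and 16.2 in cKO. The cKO libraries lay close together and above all WT libraries. The log2 fold change was 1.66 ± 0.52 (SE, n = 3; edgeR adjusted p = 0.0454). The call ended when WT replicate 2 or any 1 of the 3 cKO libraries was left out (edgeR adjusted p between 0.104 and 0.126). It also ended with the structural RNA share as a covariate (edgeR, 0.0711) and without a filter on low counts (edgeR, 0.154). On log2(TPM + 1) and log2(TPM + 0.1) it ended as well (limma adjusted p = 0.569 and 0.575). The log2 fold change of Suz12 was 2.28 without WT replicate 1 and 1.25 without WT replicate 3. At day 5 the Suz12 values were 69.6, 23.3 and 18.2 CPM in WT against 18.8, 97.9 and 22.4 in cKO. One library of each genotype was far above its group there, and the log2 fold change of 0.32 ± 0.78 did not pass.

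Eed, which binds the methyl mark and holds the catalytic subunit in its active form, was at 11.4, 13.8 and 13.2 CPM in WT against 12.2, 11.3 and 12.8 in cKO at day 9. The groups overlapped, with a log2 fold change of -0.09 ± 0.14 (edgeR adjusted p = 0.609). At day 5 its values were 32.3, 14.3 and 18.9 CPM in WT against 18.98, 32.1 and 24.2 in cKO, again overlapping. Jarid2 at day 9 was at 37.4, 49.3 and 47.4 CPM in WT against 51.8, 43.8 and 51.9 in cKO, a log2 fold change of 0.13 ± 0.14 (edgeR adjusted p = 0.442). At day 5 Jarid2 was at 41.8, 20.1 and 19 CPM in WT against 17.04, 43.1 and 24.7 in cKO. Neither gene differed between genotypes beyond the spread of its libraries at either day.

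The promoters of Ezh2 and Suz12 are shown because both hold a motif of the E2F type, the site of the factors that drive S phase genes. Windows from 250 bases before to 50 after the start were given by RefSeq (GRCm38.p6) for 9 of the 10 members. The motifs TTTCCCGC, TTTGGCGC, TTTCGCGC and TTTGCCGC were searched on both strands, and 744 of 32851 promoters (2.265%) held at least 1. Capitals mark the motif in the following runs, printed 5′ to 3′ on the strand of the gene.
Ezh2, chr6:47595011-47595097 (reverse strand): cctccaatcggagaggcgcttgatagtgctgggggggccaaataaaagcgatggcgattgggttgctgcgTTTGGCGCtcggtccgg
Suz12, chr11:79992856-79992916 (forward strand): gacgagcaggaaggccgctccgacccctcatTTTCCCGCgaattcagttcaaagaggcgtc
The motif begins at base 4 of the transcribed sequence in Ezh2 and 219 bases before the start in Suz12. The windows of the other 7 members did not hold these letters. Each motif holds the bases CG, which occurred 17 to 41 times in the member windows, against a median of 7 over all promoters. The share over all promoters is therefore not a share of like windows. A match is a description of the letters and no sign of binding.

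Among the PRC1 members, Bmi1 (PCGF4), which pairs with the RING proteins, came nearest to a call without passing. Bmi1 lies on chromosome 2 at 18677018-18686629 (mm10, forward strand). Bmi1 at day 9 was at 26.98, 20.3 and 12.9 CPM in WT against 32.7, 44.4 and 29.7 in cKO, with every cKO library above every WT library. The log2 fold change was 0.83 ± 0.29 (edgeR adjusted p = 0.0538). Bmi1 passed with DESeq2 (adjusted p = 0.0177), with upper-quartile scaling (edgeR, 0.0489) and without WT replicate 1 of day 9 (edgeR, 0.0199). After the correction for transcript GC content it was 0.15 ± 0.21 (edgeR adjusted p = 0.599). At day 5 Bmi1 was at 72.8, 26.0 and 27.6 CPM in WT against 29.2, 77.2 and 39.1 in cKO, with 1 high library in each genotype.

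The RING proteins that carry the ubiquitin ligase activity did not pass at either day. Rnf2 lies on chromosome 1 at 151458004-151500955 and Ring1 on chromosome 17 at 34020792-34024680 (mm10, both reverse strand). Their coding sequences aligned with 66.27% identical residues and 61.35% identical bases. The most alike 34 codons are printed for the same reason as for the Ezh pair: 25 bases differ, in capitals, 20 of them at the third position of a codon, and the 34 residues are the same.
Rnf2, coding bases 232-333: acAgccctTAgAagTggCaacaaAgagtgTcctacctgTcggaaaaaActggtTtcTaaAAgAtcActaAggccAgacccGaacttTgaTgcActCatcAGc
Ring1, coding bases 223-324: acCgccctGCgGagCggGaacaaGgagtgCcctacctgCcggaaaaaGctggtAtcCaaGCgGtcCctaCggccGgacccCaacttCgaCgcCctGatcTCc
This stretch had 46.08% GC in Rnf2 and 64.71% in Ring1, and the longest transcripts had 39.52% and 56.86%.

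Rnf2 at day 9 was at 27.1, 25.9 and 20.7 CPM in WT against 29.3, 36.4 and 26.9 in cKO. The groups overlapped by 1 library, and the log2 fold change of 0.34 ± 0.16 did not pass (edgeR adjusted p = 0.122). The correction for transcript GC content turned it to -0.40 ± 0.17 (edgeR adjusted p = 0.0909), against the direction of the uncorrected value. Ring1 at day 9 was at 17.3, 13.1 and 15.6 CPM in WT against 14.8, 16.9 and 15.1 in cKO, which overlapped (log2 fold change 0.03 ± 0.14). At day 5 the pair went opposite ways from library to library: Rnf2 was at 61.8, 22.1 and 26.2 CPM in WT against 23.7, 60.1 and 37.3 in cKO, and Ring1 at 17.2, 25.8 and 24.8 CPM in WT against 27.4, 13.5 and 19.6 in cKO. Rnf2 was highest and Ring1 lowest in WT replicate 1 and in cKO replicate 2. The Rnf2 to Ring1 ratio at day 9 was 1.44, 1.85 and 1.40 in WT against 2.35, 2.12 and 1.75 in cKO, which overlapped (log2 difference 0.41, exact permutation p = 0.20). At day 5 it ranged from 0.962 to 4.62 in WT and from 1.18 to 5.01 in cKO (exact permutation p = 0.70).

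Of the CBX proteins, which read methylated lysine 27 and tie canonical PRC1 to PRC2 sites, Cbx7 changed and Cbx2 did not pass. Cbx7 lies on chromosome 15 at 79915807-79971119 (mm10, reverse strand) and Cbx2 on chromosome 11 at 119022962-119031270 (mm10, forward strand). Cbx7 at day 9 was at 6.13, 5.34 and 7.33 CPM in WT against 9.35, 10.6 and 10.7 in cKO, with no overlap. The log2 fold change was 0.71 ± 0.17 (SE, n = 3; edgeR adjusted p = 0.0122). The call held in each of the 6 fits without 1 library of day 9, with edgeR adjusted p-values between 0.0125 and 0.0439. It did not hold with cKO replicates 1 and 3 of day 9 both left out, which leaves 1 cKO library (log2 fold change 0.73 ± 0.24, edgeR adjusted p = 0.0712). At day 5 Cbx7 was at 6.13, 7.76 and 5.27 CPM in WT against 6.29, 4.54 and 5.48 in cKO (log2 fold change -0.23 ± 0.27). After the GC correction the day difference of Cbx7 was 1.15 ± 0.26 (edgeR adjusted p = 0.0120) and that of Ezh1 0.86 ± 0.22 (edgeR adjusted p = 0.0252), both then past the threshold. Calls grew over all features too in that fit, to 963 of 15323 with a higher change at day 9 and 1195 with a lower one.

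Cbx2 at day 9 was at 13.96, 12.01 and 13.03 CPM in WT against 12.5, 10.9 and 11.96 in cKO, overlapping (log2 fold change -0.15 ± 0.13, edgeR adjusted p = 0.378). At day 5 it was at 24.6, 38.0 and 36.2 CPM in WT against 40.3, 22.2 and 32.6 in cKO. In TPM the Cbx2 to Cbx7 ratio at day 9 was 2.04, 2.06 and 1.53 in WT against 1.42, 1.23 and 0.895 in cKO. All cKO ratios were below all WT ratios, a log2 difference of -0.68 (exact permutation p = 0.10, the smallest possible; adjusted 0.375). At day 5 that ratio was 3.56 to 5.07 in cKO and 3.63 to 5.47 in WT (exact permutation p = 0.90). The ratio of Bmi1 to its paralogue Pcgf2 (MEL18) overlapped between genotypes at both days, with 3.04, 2.04 and 1.14 in WT against 2.104, 2.63 and 2.33 in cKO at day 9.

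**Figure D3:**
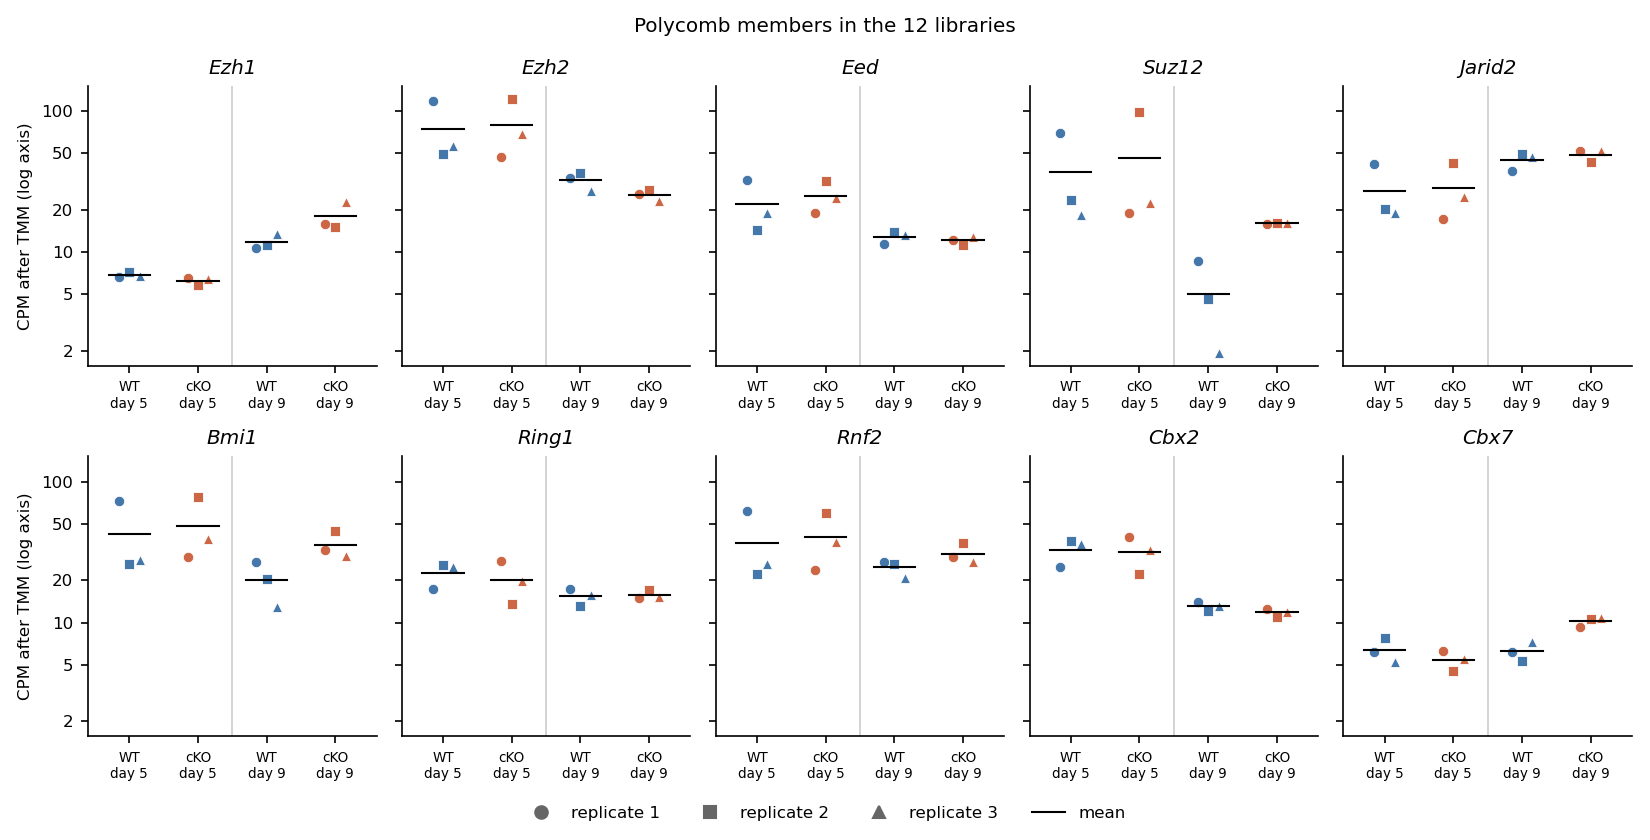
CPM of each member in each library on a log axis, by genotype and day, with symbols for the replicate and a line for the group mean; CPM is scaled within a day, so the days are separated by a grey line. At day 9 the cKO points of Ezh1, Suz12, Bmi1 and Cbx7 lie above all WT points, and at day 5 the circle of WT and the square of cKO stand apart for most members. The share of all features with no overlap at day 9 is not given, so the separation cannot be read as particular to these members.

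The spread of the members at day 5 followed their base composition. In WT replicate 1 and in cKO replicate 2 alike, 6 members had the highest value of their genotype: Rnf2, Bmi1, Suz12, Ezh2, Eed and Jarid2. These are the 6 members with the lowest transcript GC content, from 39.52% in Rnf2 to 48.8% in Jarid2. The other 4, Ezh1, Cbx7, Ring1 and Cbx2, have 51.25% to 57.55% GC, and 3 of them (Ezh1, Ring1 and Cbx2) were lowest in both libraries. WT replicate 1 exceeded the mean of the other 2 WT libraries by 3.36-fold for Suz12 and 2.72-fold for Bmi1, while Cbx2 there was at 0.662 of that mean. cKO replicate 2 exceeded the mean of the other 2 cKO libraries 4.76-fold for Suz12, and Ring1 there was at 0.574 of that mean.

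Genes outside the lists followed base composition too. Over 14736 features with a transcript GC value, Spearman's rho between GC content and a library's deviation from its group mean at day 5 was -0.721 in WT replicate 1 and -0.675 in cKO replicate 2. It was 0.346 to 0.712 in the other 4 libraries of day 5, and between -0.323 and 0.36 in the libraries of day 9. These are correlations across genes within a library, and genes are not independent replicates. Across genes, GC content also ran against the log2 fold change of cKO over WT (rho -0.447 at day 5 and -0.355 at day 9). The part of base composition in any one member's change was not tested beyond the correction named above. Without WT replicate 1 and cKO replicate 2 of day 5, 12 genes rose and 7 fell at that day, and 0 members passed.

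**Figure D4:**
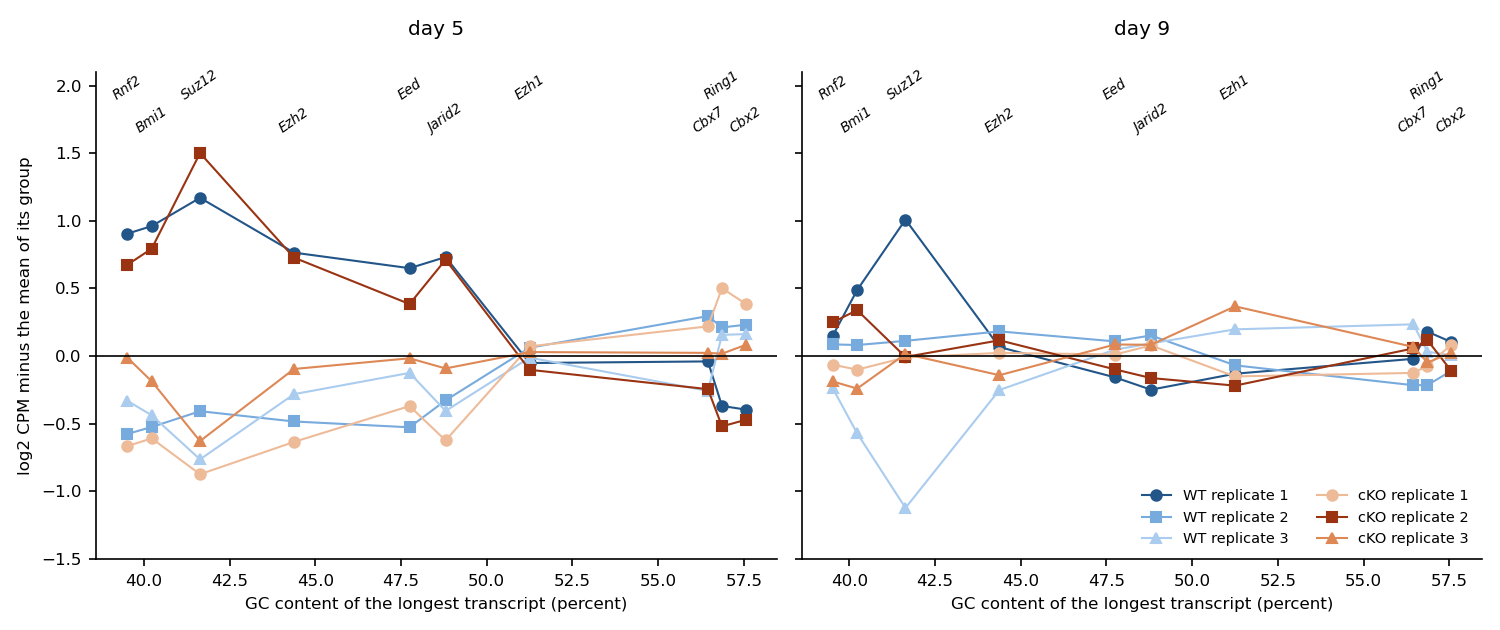
Deviation of each member's log2 CPM from the mean of its genotype and day, against the GC content of its longest transcript, 1 line per library. At day 5 WT replicate 1 and cKO replicate 2 lie above 0 for the 6 members under 50% GC and at or below 0 for the other 4. At day 9 only WT replicate 2 shows that order over all members, with smaller deviations, from -0.215 for Cbx7 to 0.183 for Ezh2.

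At day 9 genes of the cell cycle fell as a group in cKO: 17 of 20 fell and 0 rose, with a median log2 fold change of -2.34. Mcm2, a subunit of the replicative helicase, went from 71.8, 81.3 and 65.5 CPM in WT to 13.7, 16.2 and 14.6 CPM in cKO (log2 fold change -2.28, edgeR adjusted p = 1.50e-05). The summed TPM of the list, outside structural RNA, was 1301 to 1784 in WT and 229 to 372 in cKO. Astrocyte markers rose in 8 of 10 cases and 0 fell, with Gfap at 13.8 to 18.2 CPM in WT and 280 to 377 in cKO, and their summed TPM was 2866 to 4389 in WT and 7326 to 12480 in cKO. Of 9 oligodendrocyte lineage markers tested 7 rose and 2 fell (Pdgfra and Cspg4, the markers of precursors), and the summed TPM of all 10 was 354 to 472 in WT and 1823 to 3047 in cKO. Neuron markers rose in 6 of 9 cases, with summed TPM of 125 to 216 and 361 to 423, and no marker of these 3 lists was at 0 in a whole group. Of 10 progenitor markers 2 rose and 5 fell, Nes among them, with summed TPM of 6246 to 7487 in WT and 2333 to 3905 in cKO. Of 8 endothelial and mural markers 3 were tested: Kdr and Pdgfrb rose 1.70-fold and 3.89-fold, and Cspg4, which is also on the oligodendrocyte list, fell from 259 to 297 CPM in WT to 76.95 to 97.66 CPM in cKO. Their summed TPM, which includes Cspg4, was 90.4 to 106 in WT and 27.8 to 33.3 in cKO, with Cdh5 at 0 in both groups and Cldn5 at 0 in cKO, and microglial markers to 2.09 to 3.83 and 3.04 to 4.86 TPM. The part of these shifts in the values of Ezh1, Suz12, Cbx7 and Ezh2 was not tested. In such bulk samples fewer cells of a type and less RNA per cell cannot be told apart.

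Among the other PRC2 genes, the histone-binding subunits Rbbp4 and Rbbp7 fell at day 9, by 0.51 and 0.72 on the log2 scale. Over the 6 core genes 2 rose, 2 fell and 2 did not pass. The accessory genes moved further apart. Phf19, a Polycomb-like protein that brings PRC2 to CpG islands, went from 10.3, 10.1 and 8.87 CPM in WT to 2.03, 1.89 and 1.13 CPM in cKO, a 5.67-fold fall (log2 fold change -2.50 ± 0.23, edgeR adjusted p = 0.000136). Its change differed between days by -2.48 ± 0.43 (edgeR adjusted p = 0.00455). In the same list Lcorl rose from 3.02, 2.19 and 1.72 CPM to 32.1, 10.6 and 36.9 CPM, Lcor 4.01-fold and Aebp2 1.47-fold, so that 4 of 7 tested accessory genes rose and 1 fell. The call of Aebp2 at day 9 ended without WT replicate 1 (edgeR adjusted p = 0.0697), WT replicate 3 (0.0891) or cKO replicate 1 (0.0869) and without a filter on low counts (0.0948), and that of Lcor at day 9 without WT replicate 2 (0.0525).

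On the PRC1 side 2 of 8 RING and PCGF genes rose and 0 fell: Pcgf2 went from 7.74, 7.03 and 9.51 CPM to 14.03, 12.7 and 14.5 CPM (log2 fold change 0.76 ± 0.16) and Pcgf6 rose 1.63-fold. The call of Pcgf6 at day 9 ended without WT replicate 1 (edgeR adjusted p = 0.0908), WT replicate 3 (0.0622), cKO replicate 1 (0.0577) or cKO replicate 2 (0.0871), without a filter on low counts (0.0647) and after the GC correction (0.0726). Of 13 CBX, PHC and SCM genes of canonical PRC1, 2 rose and 2 fell. Phc2, a polyhomeotic protein, fell from 149, 127 and 135 CPM to 77.6, 85.7 and 92.0 CPM, Phc3 rose 2.45-fold, and Scml2, at 0.843 to 1.36 CPM in WT against 0.427 to 0.563 in cKO, fell 2.46-fold. The call of Scml2 at day 9 ended in all 6 fits without 1 library (edgeR adjusted p from 0.0533 to 0.117) and also without a filter on low counts (0.0508) and with DESeq2 (0.102). That of Phc3 at day 9 ended without WT replicate 2 (edgeR adjusted p = 0.0624), cKO replicate 1 (0.0638) or cKO replicate 3 (0.0537). In variant PRC1, whose forms lack a CBX protein, 5 of 15 rose and 3 fell. Fbrsl1, a subunit of the PCGF5 and PCGF3 complexes, stood at 22.6, 21.6 and 25.4 CPM in WT against 58.1, 70.7 and 67.4 in cKO (log2 fold change 1.497 ± 0.12, edgeR adjusted p = 7.10e-05). Its change also differed between days, by 1.60 ± 0.24 (edgeR adjusted p = 0.00217). Bcor rose 1.61-fold, Mga 4.85-fold, and L3mbtl2 fell 1.46-fold. The call of Mga at day 9 ended without WT replicate 2 (edgeR adjusted p = 0.0508) or WT replicate 3 (0.0621). Mga was at 36.9 and 34.6 CPM in cKO replicates 1 and 3, and at 11.9 CPM in cKO replicate 2. Its log2 fold change of 2.28 was 1.04 with cKO replicates 1 and 3 both left out.

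Genes of H2A deubiquitination and of H3K27 demethylation and Trithorax, the enzymes together with their partners, were counted in the same way. Of 13 genes of H2A deubiquitination 6 rose and 1 fell, led by Ogt, from 76.3, 75.7 and 60.2 CPM to 138, 134 and 135 CPM (log2 fold change 0.94 ± 0.12), with Mbd5 2.81-fold, Usp16 3.37-fold and Asxl2 2.49-fold higher. Of 13 genes on the list of H3K27 demethylases and Trithorax genes, which also holds the acetyltransferase gene Ep300, 5 rose and 2 fell. Ep300 rose 1.651-fold and Ash1l 4.19-fold, while Dpy30 fell 1.74-fold and Men1 1.33-fold. Ash1l was at 52.8 and 53.2 CPM in cKO replicates 1 and 3, at 21.65 CPM in cKO replicate 2 and at 7.445 to 12.3 CPM in WT. The call of Men1 at day 9 ended after the GC correction (log2 fold change -0.14, edgeR adjusted p = 0.186) and without cKO replicate 1 (0.0584). Among 39 classical Polycomb targets, only 5 had counts enough for the test, and 20 were at 0 in all 3 cKO libraries of day 9, against 21 in WT. Of those tested, 2 rose and 1 fell: Igf2bp3, an RNA-binding protein, fell 1.57-fold. Cdkn2b, a cell cycle inhibitor, rose from 3.05, 4.48 and 3.37 CPM to 6.55, 8.65 and 6.33 CPM, and Neurog2 rose from 0.932, 0.502 and 1.31 CPM to 2.49, 3.596 and 3.38 CPM. Cdkn2a, at 9.66, 7.996 and 9.34 CPM in WT against 4.21, 8.10 and 5.91 in cKO, did not pass (edgeR adjusted p = 0.0982).

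On the deposited TPM scale Aebp2, Pcgf2, Pcgf6, Bcor, Ogt and Ep300 also turned negative, by less than the median of all features, and Aebp2 turned negative after the GC correction as well. At day 5 none of the 70 tested genes of these lists outside the members passed, and 1 had an unadjusted p below 0.05 with edgeR as with DESeq2. Of the 17 genes named here as higher at day 9, 13 were also highest in both WT replicate 1 and cKO replicate 2 of day 5, among them Lcorl, Mga, Ash1l and Usp16, against 3 of the 9 named as lower. These genes were picked by their adjusted p at day 9. The like share over all features is not given, so the counts cannot be read as particular to Polycomb genes. After the GC correction the counts at day 9 were 2 higher and 3 lower in the PRC2 core, 2 and 1 among accessory genes, 1 and 1 in RING and PCGF, and 4 and 2 in canonical PRC1. They were 4 and 1 in variant PRC1, 6 and 0 in H2A deubiquitination, 6 and 1 in demethylases and Trithorax, and 2 and 1 among targets. The share of all features called in that fit is not set beside these counts, so they describe the lists only. With cKO replicates 1 and 3 of day 9 both left out, 1 cKO library remains. The log2 fold change was then 0.33 for Ezh1, 1.61 for Suz12 and 0.73 for Cbx7. With 1 cKO library these values do not show that the calls held.

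**Figure D5:**
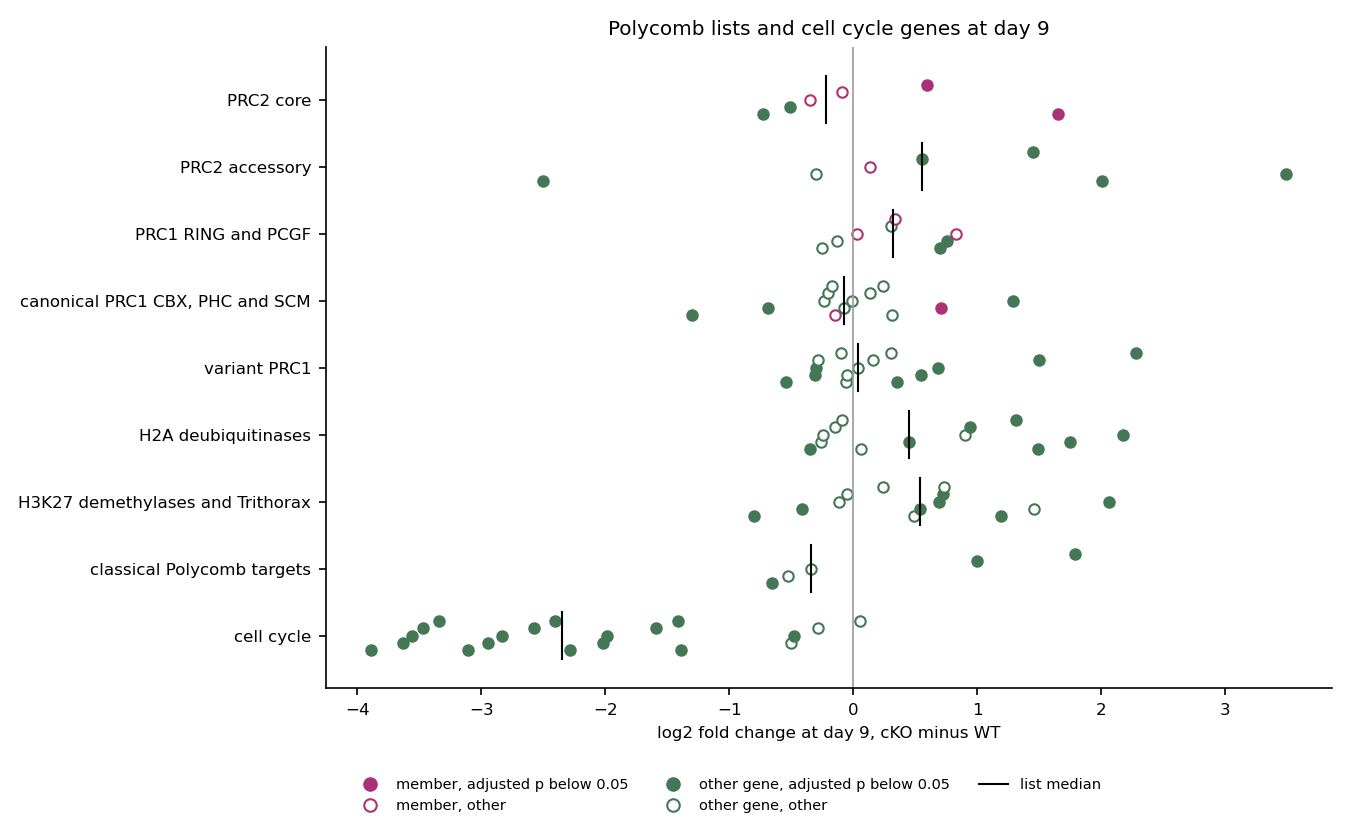
Log2 fold change at day 9 (cKO minus WT) of every tested gene in 8 Polycomb lists and in the cell cycle list; each point is a gene, filled where the adjusted p is below 0.05, members in purple, with a line at the list's median. The cell cycle list lies almost wholly below 0, with a median of -2.34, while each of the Polycomb lists spreads over both sides.

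By level, Ezh2 had the highest mean TPM of the members in WT at both days, 59.8 ± 37.7 at day 5 and 44.1 ± 6.79 at day 9 (SD, n = 3, structural RNA left out of the scaling). In cKO at day 9 Bmi1 was first with 46.2 ± 13.3 TPM, then Rnf2 with 40.3 ± 12.04 and Ezh2 with 36.3 ± 5.22, and these 3 overlapped. The order of WT at day 5 went on with Rnf2, Bmi1, Eed, Suz12, Ring1, Cbx2 and Jarid2 at 10.3 ± 6.03 TPM, and neighbours overlapped throughout. A gap with no overlap lay only before Cbx7 with 3.18 ± 0.916 and Ezh1 with 2.99 ± 0.401 TPM. In WT at day 9 the lowest were Cbx7 with 5.38 ± 1.01 and Suz12 with 4.34 ± 2.30 TPM, and in cKO at day 9 Cbx2 with 8.22 ± 1.18 and Cbx7 with 7.21 ± 1.85 TPM. Ezh1 stood at 9.67 ± 1.92 TPM in WT and 17.2 ± 2.57 TPM in cKO at day 9. On this scale the Cbx7 groups of day 9 overlapped, at 4.88, 4.72 and 6.55 TPM in WT and 5.14, 7.76 and 8.71 TPM in cKO.

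Over the 12 libraries, with each day centred on its own mean, the genes most like Ezh2 in log2 CPM among 12072 features tested at both days were Morc4 (Pearson r = 0.984), Alg13 (0.982), Pitpnc1 (0.981), Clcn5 (0.978) and Mre11a (0.970). Their transcripts have 43.55% to 46.66% GC, near that of Ezh2, and they share with it the high values in WT replicate 1 and cKO replicate 2 of day 5. The genes most like Ezh1 were Dmpk (Pearson r = 0.975), Agbl5 (0.945), Tppp3 (0.930), Dpp6 (0.926) and Ksr2 (0.918), of which Dmpk, Tppp3, Dpp6 and Ksr2 rose at day 9. These values describe the same 12 libraries that the tests used.

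Strand use in counting is not given in the sources used here. On the opposite strand, exons of Gm26625 overlap Ezh2, those of E230029C05Rik overlap Eed, those of Gm26563 overlap Suz12, those of Trmt1l overlap Rnf2 and those of Apobec3 overlap Cbx7. Reads from the shared parts cannot be told apart, so the values of these 5 members may include reads of the partner.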

How the data were processed

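Polyadenylated RNA of 12 libraries of sorted mouse neural progenitor cells was analysed in 4 groups of 3. The deposited expected counts per gene were made by the authors with RSEM and Bowtie2 on mm10, per the submitters' processing notes, and the deposited TPM values per gene come from the same quantification. No source used here gives versions, annotation or trimming. Expected counts were rounded to whole numbers. Day 5 identifiers were matched to symbols (42425 of 43309), and day 9 rows carry symbols (41839 of 42802 in the reference).

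Within a day, and for the day difference over 41592 symbols unique in each table, edgeR 4.0.16 in R 4.3.3 was used (filterByExpr, TMM, robust glmQLFit, glmQLFTest, Benjamini-Hochberg, threshold 0.05). CPM uses TMM library sizes within a day, and SE is from the F statistic. TPM levels were rescaled without 16 named structural RNA features. Ratios were tested by two-sided exact permutation, adjusted over 12 tests. Alternatives were DESeq2 1.42.0, upper-quartile scaling, no filter, structural RNA left out or as a covariate, limma 3.58.1 on log2(TPM + 1) and log2(TPM + 0.1), the replicate block and each library left out. Added after the data were seen were WT replicate 1 and cKO replicate 2 of day 5 left out together, and an offset per library from the median deviation in 20 bins of transcript GC content (longest GENCODE vM21 transcript, for 99.23% of tested features at day 5 and 97.04% at day 9). The edgeR script was tested on simulated data, with 100 genes per size of change. For a log2 change of 1 it recovered 0% at day 5, 57.6% at day 9 and 0% for the day difference. For a change of 2 it recovered 39%, 96% and 31% in that order. The members and the gene lists were chosen with earlier results of these data known. Named list genes were, per Polycomb list, up to 4 non-members past the threshold at day 9 with the smallest adjusted p. Genes most like Ezh2 and Ezh1 leave out members, pseudogenes and features without a gene name of their own. Another listed gene is not reported here and was left out of the list counts. Cdkn2a was added after its values were seen. Sequences come from GENCODE vM21 and RefSeq (GRCm38.p6).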

Additional observations from a re-analysis of the deposited data

Results flagged for a closer look

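The change of cKO against WT differed between day 9 and day 5, by edgeR's test of the difference over all 12 libraries, for 2 of the other 70 Polycomb list genes tested and for 0 of the 10 members. Phf19 had a day 9 change lower by 2.48 on the log2 scale than its day 5 change (-2.48, adjusted p = 0.00455). Fbrsl1 had one higher by 1.60 (adjusted p = 0.00217). Both calls held when any 1 of the 12 libraries was left out (adjusted p up to 0.0189 for Phf19 and 0.0206 for Fbrsl1) and after the GC correction. On the 2 TPM scales and with the replicate numbers as a block neither passed (with the block, adjusted p = 0.0750 for Phf19 and 0.0729 for Fbrsl1). Groups of 3 are too small for the test of single outlying libraries.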

How the results depend on the processing

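The number of genes called at day 5 was 1 and became 8 with DESeq2, 3 with limma on log2(TPM + 1), 3 on log2(TPM + 0.1) and 19 without WT replicate 1 and cKO replicate 2. It was 0 without a filter on low counts, with the structural RNA share as a covariate, after the GC correction and without any 1 library (0 to 0). At day 9, with 3071 higher and 3308 lower, the number of calls became 510 and 623 on the 2 TPM scales, 3341 without cKO replicates 1 and 3, and 4062 to 7504 without 1 library. For the day difference, with 394 higher and 787 lower, it became 138 and 241 on the TPM scales, 2539 without the 2 day 5 libraries, 2158 after the GC correction and 756 to 2411 without 1 library.

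On the TPM scales, log2(TPM + 1) and log2(TPM + 0.1) in that order, the sign turned at day 5 for Ezh2 -0.0238 and -0.023, Suz12 -0.0402 and -0.0457 and Jarid2 -0.0295 and -0.0287. At day 9 it turned for Ezh1 -0.0911 and -0.1265, Jarid2 -0.9968 and -1.0792, Bmi1 -0.0904 and -0.1164, Ring1 -0.9563 and -1.0902, Rnf2 -0.6296 and -0.6892, Cbx7 -0.3615 and -0.5417, Aebp2 -0.414 and -0.4701, Pcgf2 -0.3233 and -0.3995, Pcgf6 -0.2325 and -0.3799, Bcor -0.2482 and -0.348, Ogt -0.0005 and -0.011, Ep300 -0.2671 and -0.3214 and Cdkn2b -0.0751 at the second pseudocount only. For the day difference it turned for Ezh1 -0.0278 and -0.0459, Jarid2 -0.9672 and -1.0505, Bmi1 -0.2285 and -0.2611, Ring1 -0.6439 and -0.7548, Rnf2 -0.6825 and -0.7476 and Cbx7 -0.2367 and -0.3818. The median of all features moved by -0.79 and -1.02 at day 9 on these scales, and by -0.63 and -0.88 for the day difference.

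With the structural RNA share as a covariate the sign turned at day 5 for Ezh2 -0.1874, Suz12 -0.6492, Jarid2 -0.209, Bmi1 -0.0948, Rnf2 -0.0725 and Cbx2 0.0447, and at day 9 for Ring1 -0.0038. Ring1 at day 9 was -0.008 with DESeq2 and -0.0756 without a filter. Jarid2 at day 9 was -0.0601 without cKO replicates 1 and 3. Suz12 at day 5 was -0.0104 without WT replicate 1 and cKO replicate 2. After the GC correction the sign turned at day 5 for Ezh2 -0.028 and Cbx2 0.07, at day 9 for Rnf2 -0.3985, Cbx2 0.1225 and Aebp2 -0.1868, and for the day difference of Rnf2 -0.3779 and Cbx2 0.0739. None of the members named in this paragraph was called at its day. The cause of these turns was not tested.

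Among the ratios (log2), the day difference of Rnf2 to Ring1 turned to -0.0932 on rounded counts, -0.0386 with 1 TPM added to both genes and -0.126 without WT replicate 1 and cKO replicate 2 of day 5. Cbx2 to Cbx7 at day 5 turned to 0.1569 on counts and 0.1108 without those 2 libraries, and its day difference on counts was -1.0132 (exact permutation p = 0.04, unadjusted).

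Leaving out 1 library at a time gave these ranges of log2 change where a sign turned. At day 5 they were Ezh2 -0.3729 to 0.5922, Eed -0.033 to 0.6012, Suz12 -0.872 to 1.1712, Jarid2 -0.3924 to 0.5372, Bmi1 -0.3291 to 0.8598, Ring1 -0.4341 to 0.0555, Rnf2 -0.2934 to 0.742 and Cbx2 -0.2461 to 0.1468. At day 9 the range was Ring1 -0.071 to 0.1086. For the day difference they were Ezh2 -0.9549 to 0.022, Jarid2 -0.42 to 0.5207, Bmi1 -0.0443 to 1.1562, Ring1 -0.033 to 0.48, Rnf2 -0.4245 to 0.6231 and Cbx2 -0.2986 to 0.1189. Calls also turned at day 9 without a change of sign: they ended in some fits for Ezh1 (0.3925 to 0.6988), Suz12 (1.2479 to 2.2816), Lcor, Aebp2, Pcgf6, Phc3, Mga and Men1, in all 6 for Scml2, and were gained for Ezh2 (-0.4755 to -0.2518) and Bmi1 (0.5824 to 1.0925). Ratios whose sign or side of the 0.05 threshold turned ranged at day 5 over Ezh2 to Ezh1 -0.252 to 0.4652, Rnf2 to Ring1 -0.1194 to 1.0538, Cbx2 to Cbx7 -0.148 to 0.1474 and Bmi1 to Pcgf2 -0.0537 to 1.1762, at day 9 over Bmi1 to Pcgf2 -0.087 to 0.6214, and for the day difference over Ezh2 to Ezh1 -1.5855 to -0.8682, Rnf2 to Ring1 -0.6426 to 0.5306, Cbx2 to Cbx7 -0.8241 to -0.4766 and Bmi1 to Pcgf2 -0.8862 to 0.3437.

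Same-numbered WT and cKO libraries deviated with r = -0.721, -0.498 and 0.534 at day 5 and -0.001, -0.2 and -0.063 at day 9. At day 5 WT replicate 1 and cKO replicate 2 deviated together (r = 0.757). These correlations across genes cannot show whether same-numbered libraries were prepared as pairs. With the replicate block 0 genes were called at day 5 and 322 for the day difference; Bmi1 at day 9 was 0.8718 (edgeR adjusted p = 0.0232, then called), and Scml2 at day 9 was -1.286 (0.0867, no longer called).

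In cKO replicates 1 and 3 of day 9 depth limits Cbx7 most, with 60 and 76 counts, then Eed (78 and 91), Cbx2 (80 and 85) and Ring1 (95 and 107). Suz12 was limited in WT of that day, with 66 counts in WT replicate 3 and 129 in WT replicate 2. A p that missed the threshold does not show that the other 7 members were equal between genotypes at day 9. Nor does it show that any member was equal at day 5, or that its change was the same at both days.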
